A study of Homo sapiens with 38 samples.

Results

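CCND1, CCND2, CCND3, CDK4, CDK6, RB1, RBL1 and RBL2 encode the axis that palbociclib, an inhibitor of the kinases CDK4 and CDK6, acts on. The 8 genes were taken by symbol from every count file, out of 50778 gene rows in each palbociclib file and 50652 in each file of BE2C cells, and each gene had a row in all of them. Total RNA of human neuroblastoma cell lines was sequenced as 27 libraries in 15 groups. Palbociclib was given for 72 h, at 300 nM to CHLA15 and CHLA20 and at 3 μM to NB1643 and NB1691. Each of these lines also had an untreated control, with 2 libraries per line and condition. BE2C cells, a line with MYCN amplification, were given GSK-J4, an inhibitor of the histone H3K27 demethylases of the KDM6 family, at 2.5 μM for 0 h, 24 h or 48 h, with 2 libraries per time. BE2C cells were also transfected for 72 h, with a control siRNA in 2 libraries (siCtrl) and with the KDM6B siRNAs N1, N2 and N33 in 1 library each. The only reference for GSK-J4 was 0 h, with no vehicle library at 24 h or 48 h. Palbociclib dose and cell line cannot be told apart between the CHLA lines and the NB lines. The labels name no separate cultures for the replicates, so every p-value measures only the spread between these libraries. In bulk RNA, fewer cells of a kind and less RNA per cell cannot be told apart.

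D-type cyclins bind CDK4 and CDK6, and the active kinases phosphorylate the pocket proteins pRB (RB1), p107 (RBL1) and p130 (RBL2). Unphosphorylated pocket proteins hold E2F transcription factors in check, and their phosphorylation lets E2F switch on the genes of DNA replication. INK4 proteins block CDK4 and CDK6 directly, so the balance of cyclin, kinase, inhibitor and pocket protein bears on how a cell responds to palbociclib. In neuroblastoma the axis is of interest because MYCN and CCND1 are strongly expressed in many tumors. All values here are RNA levels, and neither protein nor phosphorylation was measured.

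The libraries held 36186567 to 93011010 counts on genes. The 5 fibroblast and mesenchymal markers (COL1A1, COL1A2, COL3A1, DCN and LUM) summed to 16337 to 22024 CPM (the counts of a gene scaled by the library total and its TMM factor, the unit of level used here) in NB1691 and to no more than 313 CPM in any library of the other lines. MYCN measured 86.1 and 86.5 CPM in the NB1691 control libraries against 3092 and 3256 CPM in those of NB1643. Its control means were 2.29 CPM in CHLA15 and 3.14 CPM in CHLA20, so NB1691 lay between the other lines in MYCN. The libraries labelled NB1691 thus stood apart from the other lines in cell type markers as well as in the genes below. They are called NB1691 here by their label alone, and whether they are that line was not tested. Every NB1691 value and each interaction over the 4 lines rests on that label. The 4 leukocyte markers summed to less than 1 CPM in every library, and the 3 endothelial markers to 7.39 to 7.86 CPM in NB1691 and 2.65 CPM or less elsewhere. Among the BE2C siRNA libraries, N33 stood apart, with MYCN at 465 CPM where the other 4 libraries held 1595 to 1741 CPM.

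Promoter sequences were taken from RefSeq (GRCh38.p14), which held 10 entries for 6 of the 8 genes. They are shown for RBL1, the pocket protein gene that fell with palbociclib in every line, and for CDK4, which differed most between lines among the 7 genes above the detection floor. The windows span the 250 bases before the annotated start. Capitals mark, on either strand, the E2F-type sequences in RBL1, which are TTCCCGC together with TTCGCGC and, besides, TTGCCGC together with TTGGCGC, and the E-box CACGTG, the sequence that MYC family proteins bind, in CDK4.
RBL1 promoter (chr20:37095998-37096247, minus strand): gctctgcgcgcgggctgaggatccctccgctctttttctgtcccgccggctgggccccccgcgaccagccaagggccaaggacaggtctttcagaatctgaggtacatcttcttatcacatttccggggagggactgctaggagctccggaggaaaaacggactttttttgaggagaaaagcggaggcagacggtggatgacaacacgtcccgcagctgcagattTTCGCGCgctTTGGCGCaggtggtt
CDK4 promoter (chr12:57752311-57752560, minus strand): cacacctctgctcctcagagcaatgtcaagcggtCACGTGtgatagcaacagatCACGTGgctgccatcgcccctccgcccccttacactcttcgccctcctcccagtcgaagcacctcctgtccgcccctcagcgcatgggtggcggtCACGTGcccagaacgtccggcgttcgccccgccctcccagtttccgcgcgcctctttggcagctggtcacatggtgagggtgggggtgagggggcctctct
The RBL1 window held 2 E2F-type matches, starting 25 and 15 bases before the start site, and none of the E-box. An E2F-type match was present in 10.9% of 35116 RefSeq promoter windows and in none of the windows of CCND3, CDK4, CDK6, RB1 or RBL2. The CDK4 window held 3 E-boxes, starting 216, 196 and 101 bases before the start site, and 6.34% of all windows held at least 1. A match describes the letters only and is not a measured binding site.

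Levels before treatment were compared first, to ask which cyclin, kinase and pocket protein each line uses most. CCND1, the D cyclin gene most often active in neuroblastoma, was the leading D cyclin per length of exon in 15 of 15 groups. With the union of exons as length, it accounted for 92.6% ± 0.20 (SD, n = 2) of D cyclin RNA in NB1691 controls, the lowest group mean. In CHLA15 controls it accounted for 98.3% ± 0.086 (SD, n = 2). All shares per length given here use the union of exons. By the longest transcript, CCND3 has 2394 in place of 5761 bases and CCND1 4238 in place of 4761, which makes the CCND1 share smaller. The control libraries held 1055 and 997 CPM of CCND1 in CHLA15, 919 and 906 CPM in CHLA20, and 979 and 888 CPM in NB1643. NB1691 was lowest, with 506 and 516 CPM. The log2 difference of NB1691 from NB1643 was −0.87 ± 0.050 (SE, edgeR adjusted p = 5.4e-12), while NB1643 and CHLA20 overlapped (adjusted p = 0.593). CHLA20 differed from CHLA15 by −0.17 on the log2 scale (adjusted p = 0.0313), a call lost when any 1 of these 4 control libraries was left out.

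CCND3, another D cyclin, was far scarcer than CCND1 per length, and the order of the lines differed. It measured 47.6 and 50.6 CPM in NB1691 controls, 23.5 and 27.8 CPM in CHLA20, 20.8 and 21.2 CPM in CHLA15, and 19.5 and 18.0 CPM in NB1643. NB1691 exceeded CHLA20, the next line, by 0.94 ± 0.075 on the log2 scale (SE, edgeR adjusted p = 1.02e-09), and the difference of CHLA15 from NB1643 did not pass the test (adjusted p = 0.0776). CCND2, the D cyclin of many other tissues, was at the edge of detection throughout, with at most 2 counts per library in CHLA15 and CHLA20. A count of 3 corresponded to 0.0323 to 0.0660 CPM in the palbociclib experiment. NB1643 controls held 0.164 and 0.153 CPM and NB1691 controls 0.368 and 0.251 CPM of CCND2, and this difference missed the threshold (adjusted p = 0.0761).

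CDK4, the kinase that pairs with D cyclins in most cells, differed more between lines than the other 6 genes above the detection floor. The near-floor CCND2 is set aside from this order. Its control libraries held 5675 and 5815 CPM in NB1691, but 259 and 258 CPM in CHLA15, 248 and 286 CPM in CHLA20, and 221 and 227 CPM in NB1643. NB1691 lay 4.43 to 4.68 above the other lines on the log2 scale, with a 95% confidence interval of 4.54 to 4.82 against NB1643 (edgeR adjusted p = 6.84e-21). CHLA15 and CHLA20 overlapped (adjusted p = 0.672), and NB1643 lay below CHLA15 by −0.21 (adjusted p = 0.0052). TSPAN31, a tetraspanin gene on the opposite strand that covers 44.2% of the CDK4 exon bases, measured 1897 and 1914 CPM in NB1691 controls and on average 29.8 CPM in the controls of the other lines. The strand setting of the counting is not given in the sources used here, so reads of the pair in the shared stretch cannot be told apart.

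Neighbouring genes were high in NB1691 as well, an observation made after the CDK4 values were seen. Of the 36 tested protein-coding genes within 1 Mb of CDK4, 27 lay more than 2 above the mean of the other 3 lines on the log2 CPM scale, and the median difference was 3.60. Over all 22133 tested genes the median was 0.0854, and 17.6% lay above 2. OS9 measured 14214 CPM against a mean of 133 CPM in the other lines, LRP1 6876 against 75.1 CPM, and CTDSP2 4186 against 205 CPM. SHMT2 and AGAP2, inside the same stretch, differed by −1.70 and 0.76. The tested neighbours of the other 7 members within 1 Mb had medians between −0.39 and 0.65 in NB1691. DNA copy number was not measured in these files, and its part in these levels was not tested.

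**Figure D1:**
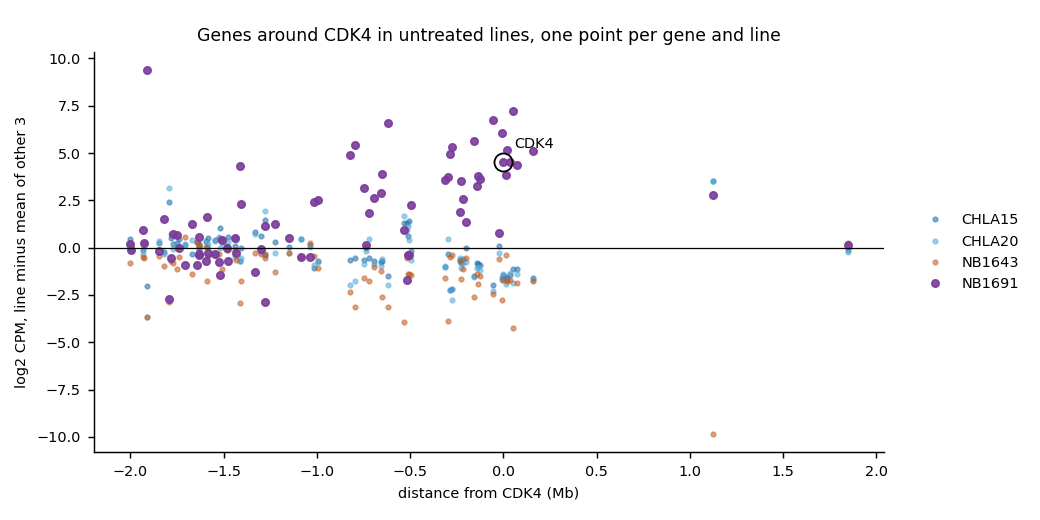
Expression of the protein-coding genes around CDK4 in control libraries. Each point is 1 tested gene in 1 line, with its distance from CDK4 in Mb on the x axis and the log2 CPM of that line minus the mean of the other 3 lines on the y axis; the NB1691 points rise above 2 for 27 of the 36 neighbours within 1 Mb, and the circle marks CDK4 at 4.53.

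CDK6, the close homologue of CDK4, ran in another order. NB1643 controls were highest, with 580 and 542 CPM, followed by CHLA20 with 486 and 387 CPM, CHLA15 with 397 and 369 CPM, and NB1691 with 213 and 233 CPM. NB1643 exceeded CHLA20 by 0.36 ± 0.079 on the log2 scale (SE, edgeR adjusted p = 0.00057), CHLA20 and CHLA15 overlapped (adjusted p = 0.135), and NB1691 lay below CHLA15 by −0.78 ± 0.080 (SE, adjusted p = 3.8e-08). Per length, CDK4 RNA outweighed CDK6 RNA in 15 of 15 group means with either measure of length. In the second palbociclib library of NB1643 the order turned per kb of the union of exons, with CDK6 at 58.2 and CDK4 at 57.3 CPM per kb. By the longest transcript CDK4 stayed above CDK6 in that library. CDK4 made up 61.2% ± 1.6 of the CDK4 and CDK6 sum in NB1643 controls and 99.0% ± 0.045 in NB1691 controls (SD, n = 2). These and the later kinase shares depend on the length used. CDK4 has 3094 bases by the union of exons and 1865 by the longest transcript, and CDK6 12239 and 11663. The longest transcript therefore gives a larger CDK4 share and a smaller CDK6 share, which the SD does not cover. Without correction for length CDK6 led in 13 of 15 groups, since its transcript is the longer.

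Among the pocket protein genes, RB1, the retinoblastoma gene, was the most abundant per length in 13 of 15 groups, and RBL2 in both NB1691 groups. RB1 measured 116 and 115 CPM in CHLA15 controls, 125 and 129 CPM in CHLA20, 68.5 and 79.1 CPM in NB1643, and 63.7 and 66.8 CPM in NB1691. The NB lines lay below the CHLA lines without overlap, NB1691 by −0.96 ± 0.060 (SE) from CHLA20 (edgeR adjusted p = 2.14e-11). RBL2, which holds E2F4 in quiescent cells, measured 141 and 144 CPM in NB1691 and 59.6 to 66.1 CPM in the control libraries of the other 3 lines. The differences of NB1691 from those lines were 1.13 to 1.21 on the log2 scale, and no difference among those 3 lines passed the test (adjusted p = 0.303 to 0.92).

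**Figure D2:**
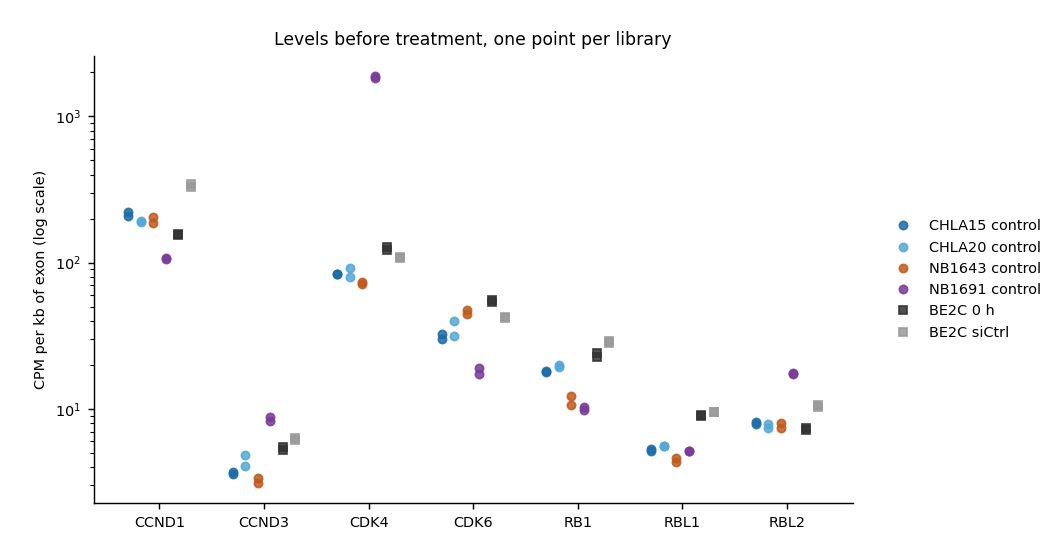
Levels before treatment in CPM per kb of exon on a log axis, 1 point per library, for the 7 genes above the detection floor. CCND1 leads CCND3, CDK4 leads CDK6 in every line, and NB1691 is set apart by CDK4 and RBL2; the BE2C libraries were normalized apart from the other lines.

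RBL1, itself an E2F-regulated gene, varied least of the pocket protein genes. Its control libraries held 31.6 and 30.6 CPM in CHLA15, 33.2 and 33.5 CPM in CHLA20, 25.9 and 27.7 CPM in NB1643, and 30.9 CPM in both NB1691 libraries. NB1643 lay below CHLA20 by −0.32 ± 0.061 on the log2 scale (SE, edgeR adjusted p = 0.000159). The position of NB1691 depended on the scaling: it lay 0.21 above NB1643 with TMM factors but fell to −0.21 below it with library totals, a scaling that moved the median of all genes by about −0.41 for this pair. Over the 6 pairs of control groups, 35 of 48 tests passed. CHLA20 and CHLA15 differed in 2 of the 8 genes, where 12.4% of all genes passed. NB1643 differed in 6 of 8 from CHLA15 (64.6% of all genes) and 6 of 8 from CHLA20 (64.5%), and NB1691 in 7 of 8 from CHLA15 (78.0%), CHLA20 (77.5%) and NB1643 (80.7%). With 8 genes these shares lie near those of all genes, and nothing is read from the counts.

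The inhibitors and partners of the axis were read from lists of pathway genes. CDKN2A and CDKN2B, which encode INK4 proteins and share a locus, had the largest differences of their list in NB1691, at 221 and 112 CPM against 4.08 and 0.0889 CPM in NB1643 controls. E2F2, an activating E2F, was lower in NB1691 than in CHLA20, with a log2 difference of −2.15 ± 0.083 (SE, edgeR adjusted p = 1.39e-14). For CDC25A, the phosphatase that activates CDK2, the same difference was −2.65 (adjusted p = 5.65e-16). Of the 16 E2F target genes of S phase, 14 were lower in NB1691 than in CHLA20 and none was higher, with a median of −1.33 beside 0.10 over all genes. Against CHLA15 the counts were 14 lower and 2 higher, and against NB1643 12 lower and 1 higher. Of all genes, 77.5%, 78.0% and 80.7% were called in either direction in these pairs.

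Palbociclib was examined next, within each line against its control. CCND1 rose in all 4 lines and RBL1 fell in all 4, whereas the other genes changed in some lines only. CCND1 measured 2099 and 2042 CPM with palbociclib against 1055 and 997 CPM in CHLA15, and 1739 and 1746 against 919 and 906 CPM in CHLA20. In NB1643 it measured 1624 and 1622 against 979 and 888 CPM, and in NB1691 944 and 947 against 506 and 516 CPM. Every treated library lay above both controls of its line. The log2 fold changes were 1.01 in CHLA15, 0.93 in CHLA20, 0.80 in NB1643 and 0.89 in NB1691, each with an SE of 0.050 (edgeR adjusted p = 2.65e-10 or below). They missed the threshold of the test of a difference between lines, the interaction test (adjusted p = 0.0968), which was passed in limma-voom (adjusted p = 0.0455) and without the second NB1643 control library (adjusted p = 0.00289). A gene higher with an adjusted p under 0.05 in all 4 lines was found in 3.53% of all tested genes, and CCND1 was the only such gene among the 8.

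CCND3 rose in CHLA15 alone, from 20.8 and 21.2 to 30.2 and 30.4 CPM (log2 fold change 0.53 ± 0.077, SE, edgeR adjusted p = 3.58e-05). It measured 29.5 and 28.1 against 23.5 and 27.8 CPM in CHLA20 (adjusted p = 0.107, or 0.0131 and a log2 fold change of 0.28 without the second control library), 16.4 and 17.9 against 19.5 and 18.0 CPM in NB1643 (adjusted p = 0.217), and 48.5 and 44.9 against 47.6 and 50.6 CPM in NB1691 (adjusted p = 0.494). Its change differed between lines (interaction adjusted p = 0.000332). CCND2 passed the test in NB1691, at 0.862 and 0.883 against 0.368 and 0.251 CPM (95% confidence interval of the log2 fold change 0.71 to 2.29, edgeR adjusted p = 0.00445), a call lost without the second control library. In NB1643 it measured 0.0767 and 0.0615 against 0.164 and 0.153 CPM (adjusted p = 0.166), and in the CHLA lines both groups lay at or under the floor.

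CDK6 rose in both NB lines. It measured 338 and 349 against 213 and 233 CPM in NB1691 (log2 fold change 0.62 ± 0.080, SE, edgeR adjusted p = 6.75e-06) and 664 and 713 against 580 and 542 CPM in NB1643 (0.30 ± 0.079, adjusted p = 0.0055). Leaving out the second treated or the second control library of NB1643 ended that call, with log2 fold changes of 0.25 and 0.23. In CHLA15 it measured 425 and 440 against 397 and 369 CPM (adjusted p = 0.107, passed in a fit of CHLA15 alone), and in CHLA20 435 and 447 against 486 and 387 CPM (adjusted p = 0.954). The interaction test of CDK6 was passed over the 4 lines (adjusted p = 0.00185) but not over the 3 lines without NB1691 (adjusted p = 0.279).

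CDK4 fell slightly where it changed. In NB1643 it measured 184 and 177 against 221 and 227 CPM (log2 fold change −0.31 ± 0.059, SE, edgeR adjusted p = 0.000335), and in CHLA20 227 and 232 against 248 and 286 CPM (−0.22 ± 0.059, adjusted p = 0.00792). The CHLA20 call was lost without the second control library, at −0.13, and in a fit of CHLA20 alone. In CHLA15 CDK4 measured 256 and 235 against 259 and 258 CPM (adjusted p = 0.416). In NB1691, with its high level, it measured 5487 and 5308 against 5675 and 5815 CPM, a log2 fold change of −0.09 with a 95% confidence interval of −0.21 to 0.03 (adjusted p = 0.264). With library totals in place of TMM the NB1691 value was −0.17 and passed the test, as it did at −0.10 in a fit of NB1691 alone. The interaction test of CDK4 gave an adjusted p of 0.0767 in edgeR and of 0.0499 in DESeq2. It also passed with no filter beyond 1 count (0.00968) and when any 1 of 5 libraries was left out (0.00108 to 0.0392), namely the second treated library of CHLA15 and the control libraries of CHLA20 and NB1643. The CDK6 share of the kinase RNA per length was 49.1% ± 1.9 with palbociclib and 38.8% ± 1.6 without in NB1643, and 1.58% ± 0.073 and 0.970% ± 0.045 in NB1691 (SD, n = 2).

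RBL1 had the largest fall of the axis in CHLA20, NB1643 and NB1691, while in CHLA15 its fall was close to that of RBL2. It measured 21.9 and 23.4 against 31.6 and 30.6 CPM in CHLA15, and 20.7 and 19.8 against 33.2 and 33.5 CPM in CHLA20. In the NB lines it measured 9.26 and 8.95 against 25.9 and 27.7 CPM in NB1643, and 14.1 and 14.9 against 30.9 CPM in both controls of NB1691. No treated library reached a control of its line. The log2 fold changes were −0.46 ± 0.061 in CHLA15, −0.72 ± 0.062 in CHLA20, −1.55 ± 0.067 in NB1643 and −1.09 ± 0.064 in NB1691 (SE, edgeR adjusted p = 1.36e-05 or below). They differed between lines (interaction adjusted p = 1.31e-07), and still did over the 3 lines without NB1691 (adjusted p = 2.34e-06). Lower in all 4 lines with an adjusted p under 0.05 held for 3.28% of all tested genes, and RBL1 was the only one of the 8.

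RB1 fell in 3 of the 4 lines. It measured 51.3 and 52.4 against 68.5 and 79.1 CPM in NB1643 (log2 fold change −0.51 ± 0.061, SE, edgeR adjusted p = 1.81e-06) and 49.9 and 49.7 against 63.7 and 66.8 CPM in NB1691 (−0.39 ± 0.061, adjusted p = 6.28e-05). In CHLA20 it measured 110 and 112 against 125 and 129 CPM (−0.20 ± 0.059, adjusted p = 0.0159), a call lost without the first treated library. In CHLA15 it measured 121 and 125 against 116 and 115 CPM (adjusted p = 0.296), and the interaction test was passed (adjusted p = 8.9e-05).

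RBL2 had its largest fall in CHLA15, the line where RB1 was not called. It fell from 64.3 and 66.1 to 45.4 and 48.6 CPM in CHLA15 (log2 fold change −0.47 ± 0.056, SE, edgeR adjusted p = 3.4e-06) and from 63.9 and 59.6 to 51.5 and 51.4 CPM in CHLA20 (−0.27 ± 0.056, adjusted p = 0.00117). In NB1643 it measured 54.9 and 55.3 against 60.0 and 64.5 CPM (−0.18 ± 0.056, adjusted p = 0.0169). That call was lost with upper quartiles (−0.12), in a fit of NB1643 alone and without either treated library or the second control library. In NB1691 it measured 145 and 148 against 141 and 144 CPM (adjusted p = 0.612), with a direction that turned to −0.04 with library totals. The interaction test was passed over the 4 lines (adjusted p = 0.000322) and not over the 3 lines without NB1691 (adjusted p = 0.0852). RBL2 made up 64.0% ± 0.19 of pocket protein RNA per length in NB1691 with palbociclib and 20.2% ± 0.38 in CHLA15 (SD, n = 2). These lines differed before treatment too, with RBL2 at 17.6 CPM per kb of exon in NB1691 controls and 8.04 in CHLA15 controls.

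**Figure D3:**
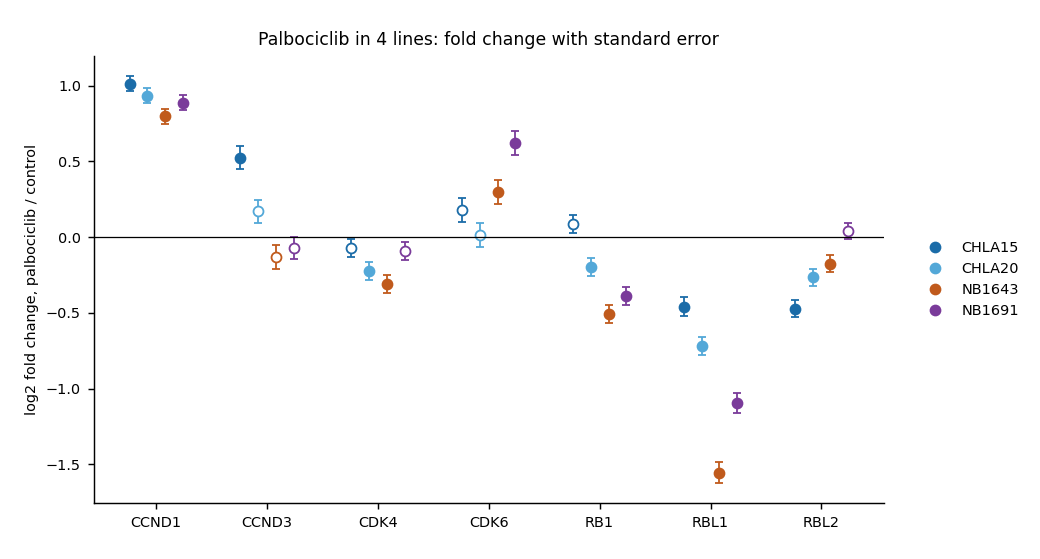
Log2 fold change with palbociclib against the control of the same line, with bars for the standard error from edgeR; filled points passed an adjusted p of 0.05 and open points did not. CCND1 lies between 0.80 and 1.01 in all 4 lines, RBL1 between −1.55 and −0.46, and the other genes pass in some lines only; CCND2 is left out because it was near the floor.

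By count, 4 of the 8 genes passed in CHLA15, where 29.8% of all 22133 tested genes did, 5 in CHLA20 (29.6%), 6 in NB1643 (39.9%) and 5 in NB1691 (32.8%). Averaged over the 4 lines, 7 of 8 passed (47.1% of all genes), with CCND1 at 0.91, CDK6 at 0.28 and CCND3 at 0.12 higher (the last not called with library totals), and CDK4 at −0.17, RBL2 at −0.22, RB1 at −0.25 and RBL1 at −0.96 lower. CCND2 was not called there, and no fold is given. The median of the 8 averaged log2 fold changes was −0.04 and that of all genes 0.00. Without NB1691, an alternative chosen after seeing its marker levels, the same number of genes passed. The line by treatment interaction was passed by 6 of 8 (38.0% of all genes) and without NB1691 by 3 of the 7 genes that could still be tested. The summed fibroblast and mesenchymal markers moved with palbociclib too. They were higher in NB1691, at 21149 to 22024 CPM against 16337 to 16636 CPM, and lower in NB1643 (13.3 to 13.6 against 34.1 to 37.6 CPM), CHLA15 (203 to 239 against 276 to 293 CPM) and CHLA20 (232 to 235 against 294 to 313 CPM). In NB1643 the markers did not all follow the sum, as 3 had a mean of at least 1 CPM with palbociclib and 2 without. The part of these markers in the changes of the axis was not tested.

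The pathway lists were read with palbociclib as well, the longest of them first. All 16 E2F target genes of S phase fell in CHLA20, NB1643 and NB1691, and 11 fell in CHLA15, with list medians of −0.60, −2.22, −1.27 and −0.21 on the log2 scale beside all-gene medians between −0.0021 and 0.019. RRM2, the small subunit of ribonucleotide reductase, fell from 164 to 6.49 CPM in NB1643 (log2 fold change −4.66 ± 0.083, SE, edgeR adjusted p = 6.28e-18) and from 130 to 8.01 CPM in NB1691. CDT1, a replication licensing factor, had the largest change of the list in CHLA15 and in CHLA20, at −0.84 and −0.85. Of the 10 E2F and DP genes, 4, 6, 7 and 6 fell in CHLA15, CHLA20, NB1643 and NB1691, and 1, 0, 0 and 1 rose. E2F8, a repressive E2F, fell from 13.4 to 0.141 CPM in NB1643.

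The counts of the smaller lists stand beside 29.8%, 29.6%, 39.9% and 32.8% of all genes called in CHLA15, CHLA20, NB1643 and NB1691, and are given in that order. Of the 7 INK4 and CIP/KIP inhibitors, 4, 4, 5 and 4 fell and 1, 1, 0 and 1 rose. CDKN2C, which encodes the INK4 protein p18, fell by 1.37 on the log2 scale in NB1643 and by 1.07 in NB1691. CDKN2D, which encodes p19, rose in CHLA15 from 13.8 to 26.4 CPM. Of the 4 cyclin E and CDK2 genes, 1, 3, 3 and 3 fell and 1, 1, 0 and 0 rose. CCNE1, encoding cyclin E1, rose in CHLA15 from 15.7 to 29.3 CPM and in CHLA20 from 20.6 to 30.6 CPM, and CCNE2 fell in NB1643 from 9.44 to 0.862 CPM. Of the 6 MuvB and B-Myb genes 2, 3, 5 and 5 fell and none rose, with MYBL2 at 10.1 against 166 CPM in NB1643. The CDK-activating kinase list (3 genes) and the D cyclin degradation list (5 genes) were mixed: 0, 1, 2 and 1 of the first and 1, 0, 0 and 1 of the second fell, and 0, 0, 0 and 2 and 1, 1, 3 and 1 rose. GSK3B, a kinase that marks cyclin D1 for degradation, rose in all 4 lines. Its log2 fold changes were 0.38 in CHLA15, 0.33 in CHLA20, 0.41 in NB1643 and 0.25 in NB1691.

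The genes most like each member over the 16 palbociclib libraries, after the mean of each line was subtracted, are given as a description. They were sought among 12033 tested genes with a mean of at least 5 CPM, and the libraries share treatment and line. For CCND1 these were VAT1 and CELF3 (Pearson r = 0.996 and 0.995), and for RBL1 they were MCM7 and USP1 (r = 0.995 and 0.994). For RB1 they were GPN3 and UBA2 (0.984 and 0.978), for CDK4 ST3GAL4 and IDH2 (0.977 and 0.974), for CDK6 CLSTN2 and NEDD4L (0.960 and 0.946), and for RBL2 SHMT2 and GLI2 (0.960 and 0.956). CCND3 was closest to EHD4 and LPCAT1 (0.942 and 0.938), and the near-floor CCND2 to ZNF486 and TMCO3 (0.883 and 0.870). MCM7, a replicative helicase subunit, is itself in the list of E2F target genes.

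GSK-J4 was then followed over time in BE2C cells. At 48 h CCND3 and CDK4 had fallen most among the detected genes, CDK6 had risen, and CCND1 had dipped at 24 h and returned slightly above its starting level. CCND1 measured 742 and 737 CPM at 0 h, 637 and 652 CPM at 24 h, and 805 and 783 CPM at 48 h. From 0 h it changed by −0.20 ± 0.027 on the log2 scale by 24 h (SE, edgeR adjusted p = 1.98e-08) and by 0.10 ± 0.027 by 48 h (adjusted p = 0.00078), and the libraries of the 3 times did not overlap. The 48 h value stood beside a median of 0.05 over all genes. Scaling by upper quartiles moved that median by 0.11, so the rise of CCND1 over 0 h was no larger than a shift from scaling. CCND3 measured 31.8 and 30.0 CPM at 0 h, 28.0 and 29.2 CPM at 24 h, and 19.0 and 18.9 CPM at 48 h. Its fall passed at 48 h (−0.70 ± 0.056, adjusted p = 1.54e-15) and not at 24 h (adjusted p = 0.0766).

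CCND2 had no count in either 0 h library, 4 and 5 counts at 24 h, and 48 and 26 counts at 48 h. Its 24 h call was lost when either 0 h library was left out. Its level at 48 h was 0.741 and 0.526 CPM. Their mean was at least 7.64-fold higher than the floor at 0 h, 3 counts per library or 0.0829 CPM. CDK4 measured 379 and 394 CPM at 0 h, 350 and 345 CPM at 24 h, and 275 and 288 CPM at 48 h. It fell by 0.15 ± 0.029 (SE, edgeR adjusted p = 1.6e-05) and then by 0.46 ± 0.029 (adjusted p = 1.28e-18) on the log2 scale from 0 h. CDK6 rose from 677 and 658 CPM to 872 and 857 CPM at 24 h (0.37 ± 0.027, adjusted p = 1.69e-16) and stood at 844 and 847 CPM at 48 h, with no call between the later times (adjusted p = 0.314). As a share of kinase RNA per length, CDK6 was 30.4% ± 1.0 at 0 h, 38.6% ± 0.069 at 24 h and 43.2% ± 0.75 at 48 h (SD, n = 2).

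The pocket protein genes moved little. RBL1 measured 54.3 and 53.3 CPM at 0 h, 50.4 and 50.03 CPM at 24 h, and 46.0 and 44.6 CPM at 48 h, a log2 fold change of −0.25 ± 0.042 at 48 h (SE, edgeR adjusted p = 1.52e-06). Its 24 h value of −0.10 passed narrowly (adjusted p = 0.045) and was lost when any 1 of the 4 libraries of 0 h or 24 h was left out. RB1 measured 154 and 145 CPM at 0 h, 136 and 137 CPM at 24 h, and 142 and 137 CPM at 48 h. Its changes of −0.13 and −0.10 passed (adjusted p = 0.000831 and 0.00504), but both were lost without the first 0 h library, the latter also without the second 48 h library (−0.08), and the 48 h value was 0.01 with upper quartiles, a scaling that moved the median of all genes by 0.11. RBL2 measured 58.3 and 59.7 CPM at 0 h, 63.0 and 64.8 CPM at 24 h, and 61.2 and 62.0 CPM at 48 h, with a call at 24 h (0.12 ± 0.040, adjusted p = 0.0118) and not at 48 h (adjusted p = 0.149). Leaving out the first 0 h or the second 24 h library ended the call at 24 h, as did DESeq2. With upper quartiles the 48 h value passed at 0.17.

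**Figure D4:**
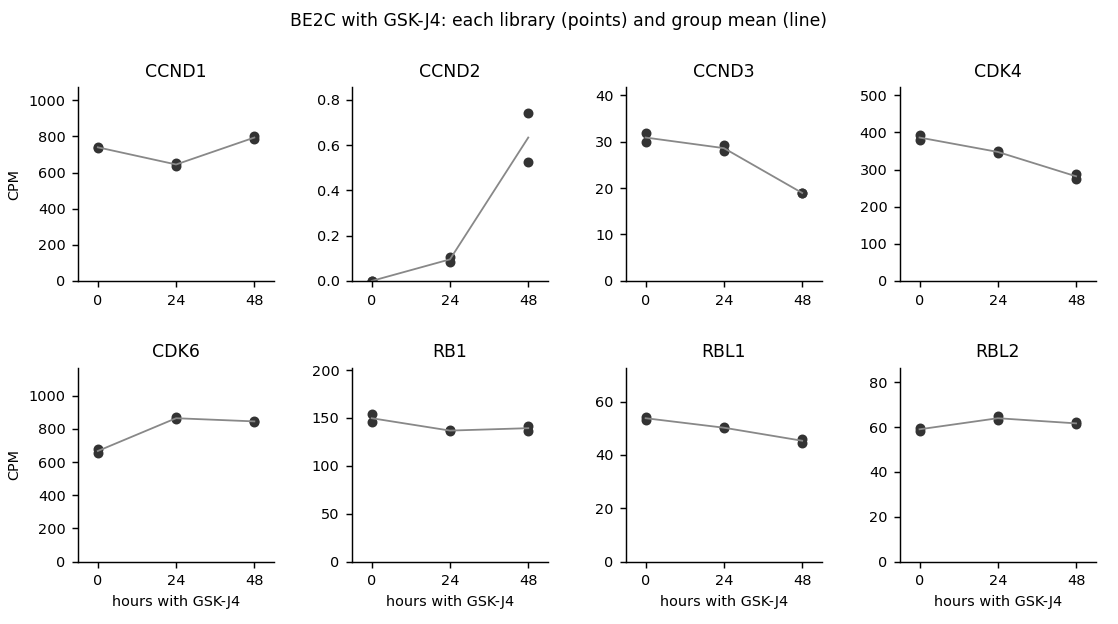
CPM of the 8 genes in BE2C cells at 0 h, 24 h and 48 h of GSK-J4, with 1 point per library and a line through the group means; every y axis starts at 0. CCND3 and CDK4 are lowest at 48 h, CDK6 is higher at both later times, and CCND2 appears only after treatment, below 1 CPM.

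Of the 8 genes, 7 passed at 24 h, where 55.3% of 17734 tested genes did, 7 at 48 h (71.5%) and 5 between 48 h and 24 h (53.9%). Without the first 0 h library the 24 h count was 3. In 1 fit with the siRNA libraries, whose spread was wider and held differences between siRNAs, 0, 1 and 0 of the 8 passed. CCND2 at 48 h was the only one. All genes called fell to 375, 3412 and 39 in that fit. The fold changes stayed close, with CDK6 at 0.37 at 24 h and CCND3 at −0.72 at 48 h. The median over the 8 genes was −0.10 at 24 h and −0.02 at 48 h, beside 0.01 and 0.05 over all genes. Among the 16 E2F target genes of S phase, 13 fell and 2 rose at 48 h. CCNA2, encoding cyclin A2, fell from 207 to 93.4 CPM, while CDT1 rose from 47.2 to 86.1 CPM. At 24 h 8 fell and 5 rose. Among the inhibitors 3 rose and 3 fell at 48 h, led by CDKN1C at 1.43 against 0.167 CPM and by CDKN1A, encoding the CIP/KIP inhibitor p21, at 44.5 against 8.05 CPM. Of the E2F and DP genes 6 fell and 1 rose at 48 h, with E2F4 at −0.60, and of the 4 cyclin E and CDK2 genes 3 fell and 1 rose. The MuvB and B-Myb list had 3 lower and 2 higher genes, the CDK-activating kinase list 2 lower and 1 higher, and the D cyclin degradation list 4 lower and 1 higher. MYCN fell in the same libraries, from 3002 and 3025 CPM at 0 h to 1466 and 1433 CPM at 48 h, and its part in the values of the axis was not tested. The summed fibroblast and mesenchymal markers were 14.1 to 14.3 CPM at 0 h, 5.20 to 5.51 CPM at 24 h and 5.68 to 5.77 CPM at 48 h. COL1A2 went against the sum, with no count at 0 h and counts at both later times. The part of these markers was not tested either.

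The siRNA libraries were read with KDM6B itself first. KDM6B measured 6.47 and 8.76 CPM in siCtrl and 8.98, 7.11 and 8.25 CPM in N1, N2 and N33, so no library labelled siKDM6B lay below both controls. In edgeR, 0 of 17472 tested genes passed an adjusted p of 0.05 (0% of all genes), while 1615 had an unadjusted p under 0.05. DESeq2 called 157 genes and limma-voom 0, and no gene of the axis was among them. CCND2 was not tested, with 0 counts in both siCtrl libraries and at most 0.0589 CPM in the others.

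The siRNAs differed among themselves in the axis. CCND1 measured 1570 and 1650 CPM in siCtrl, 1821 in N1 and 1690 in N2, but 656 in N33. CCND3 measured 35.4 and 36.7 CPM in siCtrl, 22.2 in N1 and 21.8 in N2, but 53.7 in N33. RB1 went the same way as CCND3, with 188 and 180 CPM in siCtrl, 146 in N1, 127 in N2 and 229 in N33. N33 thus lay on the other side of the controls from N1 and N2 for these 3 genes. The fibroblast and mesenchymal markers summed to 205 CPM in N33, 96.8 in N1, 69.0 in N2 and 82.5 to 89.1 CPM in siCtrl. COL1A1 went against the sum, with no count in N33 and counts in siCtrl, while COL1A2 had no count in siCtrl. The part of these markers was not tested. CDK4 measured 332 and 337 CPM in siCtrl and 278, 310 and 217 CPM in N1, N2 and N33, below both controls in each (log2 fold change −0.32 ± 0.23, SE, edgeR adjusted p = 0.699). RBL1 measured 56.7 and 56.8 CPM in siCtrl and 44.4, 46.6 and 35.8 CPM, also below both controls in each (−0.42 ± 0.22, adjusted p = 0.599). The share of all genes below both controls in each is not given here, and nothing is read from these positions. CDK6 ranged from 363 CPM in N33 to 750 CPM in N2 around 517 and 513 CPM in siCtrl, and RBL2 from 54.7 CPM in N1 to 108 CPM in N33 around 85.8 and 83.1 CPM. Without N33 the CCND1 value turned from −0.21 to 0.13 and CCND3 from −0.15 to −0.71, neither past the threshold (adjusted p = 0.674 and 0.182). None of the 7 pathway lists had a called gene, and the median of the 16 E2F target genes was −0.80 beside 0.04 over all genes.

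**Figure D5:**
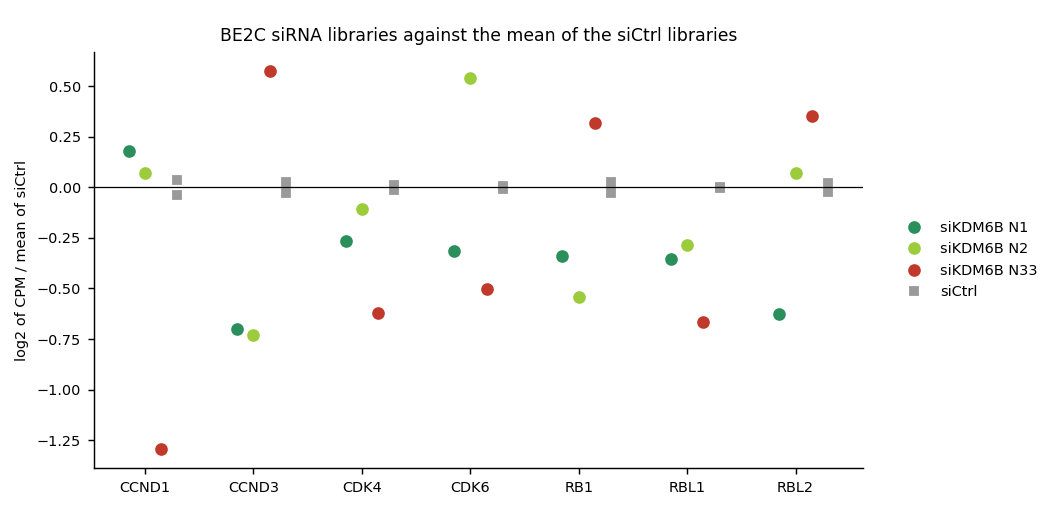
Log2 ratio of each siKDM6B library to the mean of the siCtrl libraries, with 1 point per library and grey squares for the siCtrl libraries themselves. N33 lies at −1.29 for CCND1, 0.58 for CCND3 and 0.32 for RB1, on the other side of the controls from N1 and N2. CDK4 and RBL1 are below the controls with all 3 siRNAs, and neither passed the test (edgeR adjusted p = 0.699 and 0.599).

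Between the BE2C experiments the reference levels were not alike, and they are given side by side without a test because they were normalized apart. CCND1 measured 742 and 737 CPM at 0 h of GSK-J4 and 1570 and 1650 CPM with siCtrl. CDK4 measured 379 and 394 against 332 and 337 CPM, and CDK6 677 and 658 against 517 and 513 CPM. MYCN measured 3002 and 3025 against 1595 and 1612 CPM.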

How the data were processed

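RNA-seq counts of 38 files were analysed. Per the labels and the study's methods, the authors sequenced paired ends of 100 bp, used STAR 2.5.3a with GRCh37, and obtained gene counts with htseq-count. The deposited counts are whole numbers by gene symbol, without normalization. The strand setting is not given in the sources used here. The methods name a mouse annotation, while the symbols are human, and the labels name xenograft tissue for the RNA where the methods name cells. For BE2C, each library is the sum of 2 of the 22 files, which gives 11, and each KDM6B siRNA was taken as 1 library. Summary lines of htseq-count were left out.

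CPM were computed with TMM factors, and per kb of the union of exons (Gencode v44 lifted to GRCh37). Groups were tested with edgeR 4.0.16 in R 4.3.3 (filterByExpr, quasi-likelihood F test, Benjamini-Hochberg over all tested genes, threshold 0.05). The palbociclib, GSK-J4 and siRNA libraries were in 3 separate fits, and the 3 KDM6B siRNAs formed 1 group. The fits were tested on simulated data. There the libraries of a group did not differ by siRNA, so the simulation does not bear on that pooling. Log2 CPM used a prior count of 2. Intervals and the floor of 3 counts cover counting error or library spread only. Alternatives were DESeq2 1.42.0, limma-voom 3.58.1, library totals, upper quartiles, other filters, a fold limit, a replicate block, fits of the compared groups alone, each file as a sample, 1 joint BE2C fit and leaving out each library. Figures and tables used Python 3.11.15, pandas 2.3.3 and matplotlib 3.10.9. The members and lists were chosen with earlier results of these data known. Named pathway genes are at most the 2 called genes of each list with the largest change per comparison, and OS9, LRP1, CTDSP2, SHMT2, AGAP2 and MDM2 were chosen after their values were seen. Another list of cell type markers, beside those given, is not reported here.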

Additional observations from a re-analysis of the deposited data

Results flagged for a closer look

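The change with palbociclib differed between the 4 lines for 6 of the 8 genes, by the edgeR interaction test with 3 degrees of freedom. Of all tested genes, 38.0% passed this test. RBL1 (adjusted p = 1.31e-07) fell in every line, by 0.46 on the log2 scale in CHLA15 and by 1.55 in NB1643. RB1 (adjusted p = 8.9e-05) was 0.09 in CHLA15 and −0.51 in NB1643. RBL2 (adjusted p = 0.000322) fell in CHLA15 by 0.47 and was 0.04 in NB1691. CCND3 (adjusted p = 0.000332) rose in CHLA15 by 0.53 and was −0.13 in NB1643. CDK6 (adjusted p = 0.00185) was 0.01 in CHLA20 and rose in NB1691 by 0.62. Without NB1691 the interaction tests of RBL2 and CDK6 were not passed (edgeR adjusted p = 0.0852 and 0.279). CCND2 (adjusted p = 0.0449) was near the floor, and its test was not passed in DESeq2, limma-voom, with library totals or with the replicate block. The CHLA lines received 300 nM and the NB lines 3 μM, so line and dose cannot be told apart.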

How the results depend on the processing

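A stricter call required a log2 fold change of more than 0.5 in size too. With palbociclib this left 2 genes called in CHLA15, 2 in CHLA20, 3 in NB1643 and 2 averaged over the lines. In NB1691 CCND1, CCND2, CDK6 and RBL1 kept the call, and RB1, at −0.39, lost it. With GSK-J4 the stricter call left 1, 2 and 2 genes at 24 h, 48 h and between them. The share of all genes passing it is not given here, and nothing is read from these counts. In 1 fit of the siRNA and GSK-J4 libraries the GSK-J4 counts fell from 7, 7 and 5 to 0, 1 and 0. The common biological coefficient of variation was 0.0219 in the GSK-J4 fit and 0.350 in the siRNA fit, where the 3 KDM6B siRNAs formed 1 group. With each file as a sample 1 gene was called in the siRNA libraries, RBL1. Leaving out 1 library gave 3 to 6 genes at 24 h of GSK-J4, and the interaction without NB1691, chosen after seeing the data, gave 3. Of 1644 alternative values of single genes, 1496 kept direction and side of the threshold, 89 lost the call, 32 gained it and 27 changed sign.

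Signs changed with library totals for RBL2 with palbociclib in NB1691 (−0.043), RBL1 in NB1691 against NB1643 (−0.21), and, in the siRNA libraries, CDK6 (0.023) and RBL2 (0.047). With upper quartiles they changed for RBL2 in NB1643 against CHLA15 (0.0032), RB1 at 48 h of GSK-J4 (0.0070), CDK6 (0.030) and RBL2 (0.0092) between 48 h and 24 h, and RBL2 in the siRNA libraries (0.0056). A minimum of 10 counts gave 0.030 for RBL1 in NB1691 against CHLA15, and no filter gave −0.012 for RBL2 in NB1643 against CHLA20. Leaving out 1 library gave −0.15 to 0.17 for CDK6 with palbociclib in CHLA20, −0.054 to 0.15 for CDK4 in CHLA20 against CHLA15, −0.0778 to 0.00034 for RBL2 in NB1643 against CHLA15, −0.030 to 0.14 for CCND1 and −0.016 to 0.080 for RBL2 in NB1643 against CHLA20, and −0.0090 to 0.050 for RB1 between 48 h and 24 h of GSK-J4. In the siRNA libraries it gave −0.45 to 0.13 for CCND1, −0.71 to 0.076 for CCND3, −0.40 to 0.18 for CDK6, −0.43 to 0.029 for RB1 and −0.23 to 0.23 for RBL2. The cause was not tested.

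Same-numbered libraries did not deviate together (correlations −0.063 to 0.048), so the numbers were not used as pairs. With a replicate block 4, 5, 6 and 5 genes were called with palbociclib in CHLA15, CHLA20, NB1643 and NB1691, as without it, while the interaction p was 0.0361 for CDK4 and 0.0507 for CCND2. DESeq2 gave no adjusted p for CCND2 with palbociclib in NB1691. With 2 libraries per group and 1 per KDM6B siRNA, small changes and CCND2 near the floor are limited by counts and spread.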

Other observations

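MDM2, the gene of the p53 ubiquitin ligase, lies on chromosome 12 like CDK4 and was looked at after the CDK4 values were seen. It measured 6902 and 7024 CPM in the NB1691 control libraries and 61.6 to 78.5 CPM in the controls of CHLA15, CHLA20 and NB1643. Genes between CDK4 and MDM2 beyond 2 Mb were not examined.

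KDM6B measured 7.42 and 8.16 CPM in BE2C at 0 h, 16.1 and 16.5 CPM at 24 h and 23.7 and 22.8 CPM at 48 h of GSK-J4, and 40.1 to 118 CPM over all palbociclib and control libraries of the other lines. In each of those lines both palbociclib libraries lay above both controls. No test of KDM6B and no share of all genes that separate in this way are given here, and nothing is read from it. In NB1643 KDM6B measured 96.6 and 88.7 CPM with palbociclib and 62.0 and 50.1 CPM without.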
